A study of Mus musculus with 4 samples.

Results

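The genes described here encode 8 receptors through which hypothalamic peptides can act on the hindbrain: Crhr1 and Crhr2 for corticotropin-releasing hormone (CRH) and urocortins, Oxtr for oxytocin, Avpr1a for vasopressin, Hcrtr1 and Hcrtr2 for orexins, Trhr for thyrotropin-releasing hormone (TRH) and Mchr1 for melanin-concentrating hormone (MCH). They were chosen by ligand from the 32285 genes of the count matrices, and they were followed through every annotated cell type and every neuronal cluster. Single nuclei came from a piece of mouse hindbrain that holds the area postrema (AP) and the nucleus of the solitary tract (NTS). There were 4 libraries (controls, n = 2, and AgRP-Gq;POMC-Gi, n = 2), and both groups received clozapine N-oxide (CNO), the ligand of the designer receptors, at 3 mg per kg, with tissue taken after 1 h without food. AgRP-Gq;POMC-Gi mice carried the alleles AgRP-IRES-Cre+/-, hM3DGqfl/-, POMC-Dre+/- and hM4DGifl/-. Cre made in AgRP neurons switched on the activating receptor hM3DGq, and Dre made in POMC neurons switched on the inhibitory receptor hM4DGi. AgRP neurons lie in the arcuate hypothalamus, and POMC neurons lie mainly there, with a smaller group known in the NTS. The controls, labelled WT, carried both receptor alleles according to the study's methods but neither recombinase, and they also received CNO. All mice were 12 to 20 weeks old and of both sexes. Animals of a condition were pooled, and which mice went into which library was not given, so a p-value below measures only the spread between these libraries.

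CRH, oxytocin, vasopressin and TRH are made in the paraventricular hypothalamus, which sends axons to the NTS and the dorsal vagal motor nucleus. Orexins and MCH come from neurons of the lateral hypothalamus that project widely, including to the hindbrain, and are linked to arousal and feeding. All 8 proteins are G protein-coupled receptors: CRH receptors signal mainly through Gs and cyclic AMP, the oxytocin, vasopressin V1a, orexin and TRH receptors mainly through Gq and phospholipase C, and the MCH receptor through Gi and Gq. A receptor transcript in a nucleus says that the gene was transcribed there, and says nothing of whether its peptide was released nearby.

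The study's annotation kept 39461 of 44303 barcodes (9723 to 10051 per library), with 48904976 to 53089402 UMIs (unique molecular identifiers, here counted transcripts) per library, and 12539 of the kept nuclei were neurons in 134 clusters of 15 to 227 nuclei. Neurons made up 25.4% and 27.2% of nuclei in the controls, and 38% and 36.5% in AgRP-Gq;POMC-Gi mice. The neuronal markers Rbfox3, Snap25 and Syt1 were each highest in the nuclei annotated as neurons. The libraries also differed in other ways. Xist, which is transcribed in female cells, stood at 507, 319, 541 and 16.2 CPM in neurons (UMIs of the gene scaled to 1000000 UMIs of the nuclei summed), and Ttr, the defining transcript of choroid plexus, at 1.49, 1003, 7.53 and 580 CPM. These values, and all others given for the 4 libraries, are given in a fixed order, first controls 1 and 2 and then AgRP-Gq;POMC-Gi replicates 1 and 2. Across libraries, 168 barcode sequences were shared by more than 1 library. The part of the sex makeup and of Ttr in the results was not tested, except where a value is given beside a result.

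All 8 genes are protein coding. In GRCm38 (mm10) Crhr1 lies at chr11:104132855-104175523 on the plus strand, Crhr2 at chr6:55090049-55133016 on the minus strand, Oxtr at chr6:112473683-112489943 on the minus strand and Avpr1a at chr10:122448499-122453452 on the plus strand. Hcrtr1 lies at chr4:130130217-130139359 and Hcrtr2 at chr9:76225880-76323856, both on the minus strand, while Trhr at chr15:44196135-44235912 and Mchr1 at chr15:81235499-81238964 share a chromosome and the plus strand. No other annotated gene overlaps them on their own strand. On the opposite strand Avpr1a overlaps Gm48877 and Hcrtr2 overlaps Gm27234.

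Orexin receptor 2 was the most widely detected of the receptors, and oxytocin and vasopressin receptors were close to the limit of detection. Hcrtr2 stood at 51.4 ± 4.37 CPM in neurons (SD over 4 libraries) and had a UMI in 21.5% of them (exact 95% Clopper-Pearson interval 20.8 to 22.2%, which covers counting error only). Crhr1 followed at 16.4 ± 1.8 CPM with 11.5% of neurons (11 to 12.1%), and Trhr at 8.5 ± 0.818 CPM with 5.38% (4.99 to 5.79%). Hcrtr1 was found in 2.95% of neurons (2.66 to 3.26%) at 3.3 ± 0.268 CPM and Mchr1 in 1.53% (1.32 to 1.76%) at 1.62 ± 0.366 CPM. The remaining receptors were found in few neurons: Crhr2 in 75, Oxtr in 60 and Avpr1a in 57. Their levels were 0.649 ± 0.376, 0.514 ± 0.137 and 0.472 ± 0.0654 CPM, and the means of these 3 receptors differed by less than the SD of Crhr2. Each of the other neighbours in this order was separated by more than its SD. Even a positive nucleus usually held few transcripts, with an average of 2.4 UMIs per positive neuron for Hcrtr2 and at most 26, 1.59 for Trhr and 1.41 for Crhr1. For the other receptors the average was 1.04 to 1.15, so that a neuron without a UMI cannot be called negative at this depth.

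These levels are not comparable between genes as they stand, since introns were counted and the loci differ in length. Per kilobase of gene span, the level in neurons was 0.525 CPM for Hcrtr2, 0.467 for Mchr1, 0.385 for Crhr1, 0.36 for Hcrtr1 and 0.214 for Trhr, against 0.0952 for Avpr1a, 0.0316 for Oxtr and 0.0151 for Crhr2. On this scale Mchr1, whose locus spans 3.47 kb, stood next to Hcrtr2, whose locus spans 98 kb. The tags come from the 3′ end or from internal priming, so span is only a rough correction.

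Transcripts of 7 of the 8 receptors came mostly from neurons, and Crhr2 was the exception. Neurons held 98% of all Hcrtr2 UMIs, 97% of Crhr1, 95.5% of Trhr, 93.2% of Hcrtr1, 86.7% of Oxtr, 82.6% of Mchr1 and 77.6% of Avpr1a, but 21% of Crhr2. Neurons also held most UMIs of all genes. These were 26860073, 27431280, 35583732 and 35276413 of 49615951, 48904976, 51033439 and 53089402 kept UMIs in the 4 libraries. Among the 7 receptors, Avpr1a and Mchr1 exceeded this share the least. Oligodendrocytes, which are not known for these receptors, served as the measure of free RNA: there the share of nuclei with a UMI was between 0.0178% for Avpr1a and 0.309% for Hcrtr2, at a median of 2460 UMIs per nucleus against 8704 in neurons. With every nucleus thinned to 800 UMIs, Hcrtr2 was seen in 3.62% of neurons and 0.101% of oligodendrocytes, Crhr1 in 1.05% and 0.0416%, Trhr in 0.662% and 0.0535%, and Hcrtr1 in 0.263% and 0.0297%. The neuronal share thus stayed above the background share at equal depth for Hcrtr2, Crhr1, Trhr and Hcrtr1. Shares at this depth are not given for Oxtr, Avpr1a and Mchr1. In oligodendrocytes Hcrtr2 had 14, 8, 12 and 18 UMIs in the 4 libraries, which are read here as background.

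Of the 410 Crhr2 UMIs, 306 lay in choroid plexus nuclei, the epithelium that makes cerebrospinal fluid, and 29.9% of these 773 nuclei had at least 1 (26.7 to 33.2%). The nuclei came almost wholly from 2 libraries, with 2, 436, 6 and 329 nuclei. Crhr2 stood at 76.7 CPM in control replicate 2 (149 UMIs) and at 99.9 CPM in AgRP-Gq;POMC-Gi replicate 2 (156 UMIs), and it had 0 and 1 UMI in the few nuclei of the other libraries. The receptor was therefore seen in choroid plexus of both groups, at a level far above its 0.649 CPM in neurons, and the groups could not be compared there. Neuronal Crhr2 was lowest, at 0.219 CPM, in control replicate 2, where Ttr in neurons was highest, and highest, at 1.08 CPM, in AgRP-Gq;POMC-Gi replicate 2, where Ttr in neurons was at 580 CPM. Outside neurons and choroid plexus the receptors were sparse. Mchr1 had 1 UMI in the ependymal nuclei of each library, or 3.9, 4.98, 4.12 and 4.35 CPM, and a UMI in 1.27% of 314 nuclei. Its highest mean, in Ms4a4b immune nuclei, rested on 1 UMI, and the highest mean of Avpr1a, in fibroblasts, on 4. Endothelial nuclei held 12 Hcrtr2 UMIs (7.47 ± 7.89 CPM) in 0.76% of 789 nuclei.

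**Figure D1:**
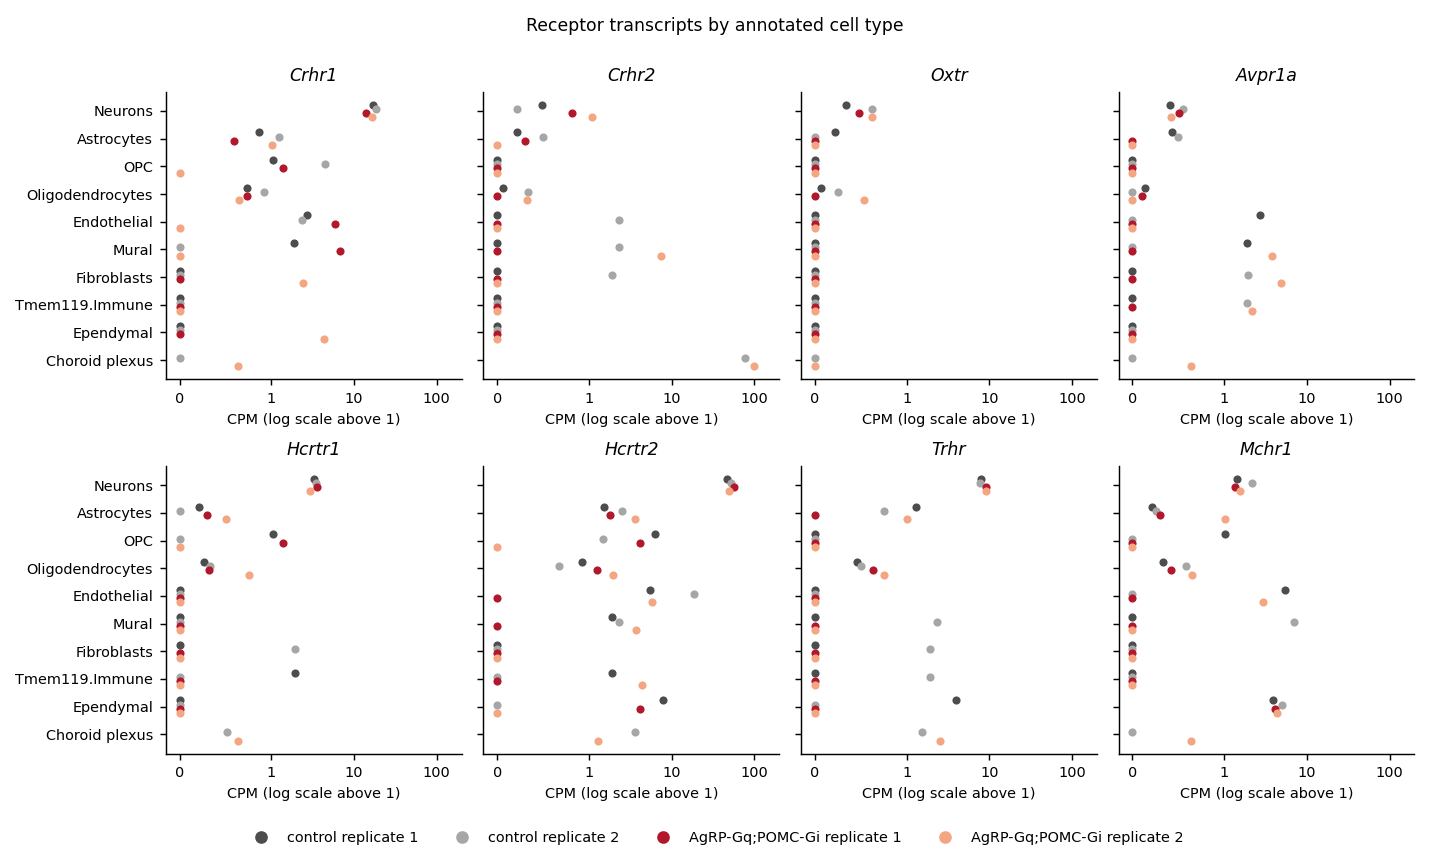
CPM of each receptor (symmetric log axis, linear below 1) by annotated cell type, 1 point per library, for the 10 types drawn, with libraries of under 20 nuclei of a type left out. Neurons lead for Hcrtr2, Crhr1 and Trhr in all 4 libraries, and choroid plexus leads for Crhr2 at 76.7 and 99.9 CPM.

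Among neurons, a cluster was taken to bear a receptor where the lower bound of the exact 95% interval of its share of positive nuclei lay above the oligodendrocyte share and UMIs came from at least 3 libraries. By this rule Hcrtr2 was borne by 105 of the 133 clusters with at least 20 nuclei, Crhr1 by 86, Trhr by 50, Hcrtr1 by 36, Mchr1 by 12, Avpr1a by 5, Crhr2 by 4 and Oxtr by 3. Hcrtr2 had no UMI in 5 clusters and Crhr1 in 13, whereas Crhr2, Avpr1a and Oxtr had none in 101, 99 and 97. Since neurons are deeper than the background nuclei, depth enters these counts: with every nucleus thinned to 2000 UMIs the rule kept 62 clusters for Hcrtr2, 30 for Crhr1, 17 for Trhr, 1 for Hcrtr1 and none for the others. Leaving out 1 library, with UMIs then asked of all that remain, also lowered the count of every receptor but Oxtr. Clusters were called glutamatergic or GABAergic where Slc17a6, the vesicular glutamate transporter gene, or Slc32a1, the vesicular GABA transporter gene, was at least 4-fold the other. Of the 134 clusters, 69 were glutamatergic and 46 GABAergic. The receptors fell on both sides of this divide.

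**Figure D2:**
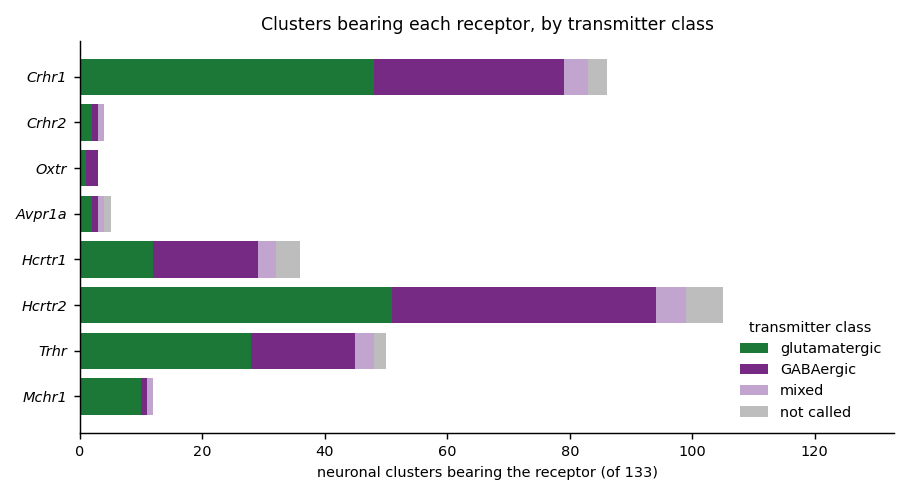
Number of the 133 neuronal clusters that bore each receptor, stacked by transmitter class. Hcrtr2 reaches 105 clusters and Crhr1 86, while Oxtr, Crhr2 and Avpr1a stay between 3 and 5.

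Crhr1, the main receptor for CRH, was borne by 48 glutamatergic and 31 GABAergic clusters. It stood at 19.5, 22.4, 19.1 and 21.7 CPM in glutamatergic neurons and at 14.6, 13.7, 8.96 and 11.6 CPM in GABAergic neurons, and the 2 sets of libraries did not overlap. Few clusters carried much of this: the 5 highest clusters, most of them glutamatergic, held 31.1% of neuronal Crhr1 UMIs in 4.06% of neurons, and the median cluster was at 8.99 CPM. Among the clusters reported here, its level was highest in clusters named for Slc17a7, which encodes another vesicular glutamate transporter. Slc17a7/Col27a1 had 171, 75.6, 78.4 and 126 CPM, with a UMI in 68.8% of 48 nuclei, and its control replicate 1 rested on 4 nuclei. Slc17a7/Il1rapl2 (76.1 ± 25.6 CPM), Mylk/Mctp2 (71.8 ± 30.6 CPM) and the GABAergic Rbm20/Nox4 (65.7 ± 8.92 CPM) followed, and neighbouring means in this order overlapped in their SD. The genes whose levels over the 133 clusters were most like Crhr1 among 15469 genes were Kcna1, a potassium channel gene (Pearson r = 0.64 of log2(CPM + 1)), Osbpl6 (0.62) and Mir124a-1hg (0.61). These correlations describe clusters that share libraries and differ in depth.

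Crhr2, the receptor that prefers urocortins, was found in few of these neurons. Its 86 neuronal UMIs were led by cluster Gfral/Sctr, which is glutamatergic and marked by Gfral, the GDF15 receptor gene of the area postrema (316 CPM there). In this cluster Crhr2 had 1, 0, 9 and 12 UMIs in 7, 17, 40 and 37 nuclei, or 14.8, 0, 27.5 and 42.4 CPM, and 16.8% of the 101 nuclei had a UMI (10.1 to 25.6%). Cluster 129 (Bnc2/Ebf2) followed with 9.22, 0, 18.5 and 45.5 CPM in 67 nuclei. These levels came from 1, 0, 1 and 10 UMIs in 15, 6, 10 and 36 nuclei. In both clusters the AgRP-Gq;POMC-Gi libraries were above the control libraries in CPM, and in both control replicate 2 was at 0. In cluster 129 replicate 1 of each group rested on 1 UMI, so no direction is read from it. Qrfprl/Baiap3 (4.28 ± 2.91 CPM, 4 UMIs) also bore the gene. Clusters Ccdc172/Ebf2, Cartpt/Arhgap28 and Ebf2/Calb1 had higher means than Qrfprl/Baiap3, from 5 to 6 UMIs each, but all of these UMIs came from the AgRP-Gq;POMC-Gi libraries. The controls had fewer nuclei there. The 4 libraries held 9, 5, 14 and 28 nuclei of Ccdc172/Ebf2, 6, 7, 19 and 23 of Cartpt/Arhgap28, and 13, 19, 23 and 38 of Ebf2/Calb1. No direction is read from these clusters. In Sema3a/Klhl1 all 3 Crhr2 UMIs came from the controls.

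Oxtr was borne by 3 clusters. In Col5a2/Col6a1, a glutamatergic cluster, it had 10.2, 6.55, 28.5 and 12.2 CPM, from 8 UMIs in 10.5% of 57 nuclei. The GABAergic cluster Tfap2b/Esr1, named in part for the estrogen receptor gene, had 4.4, 12.3, 9.28 and 7.18 CPM from 10 UMIs, and Il1rapl2/Slc6a5, named in part for the neuronal glycine transporter gene, had 2.47 ± 0.427 CPM from 6. Each of these clusters had UMIs in all 4 libraries, and Il1rapl2/Slc6a5 lay below Tfap2b/Esr1 by more than the SD of either. Avpr1a was borne by Pax8/Bcl11a (4.69 ± 5.68 CPM), Tafa2/Pde1a (4 ± 1.49 CPM), Prph/Slc5a7 (3.67 ± 3.37 CPM), Pdyn/Cpa6 (3.1 ± 2.38 CPM) and Col19a1/Sv2b (1.1 ± 0.736 CPM), with 3 to 6 UMIs in each, and the order of the first 4 clusters cannot be read from these counts.

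The 2 orexin receptors had different leading clusters. Hcrtr1, which prefers orexin A, was borne by 17 GABAergic and 12 glutamatergic clusters and led in Tph2/Slc6a4, the cluster marked by Tph2, which encodes the serotonin-synthesising enzyme of neurons (1341 CPM there). Hcrtr1 had 6, 1, 4 and 1 UMIs in its 22, 5, 11 and 5 nuclei, or 23.9, 18, 41 and 45.7 CPM, and 25.6% of the 43 nuclei had a UMI (13.5 to 41.2%). The gene was present in all 4 libraries of this cluster, on 12 UMIs in total. Lama1/Sntg2 (19.6 ± 22.6 CPM), Npsr1/Igf1 (19.4 ± 17.9 CPM), Ebf2/Adarb2 (18.1 ± 7.97 CPM) and Otof/Hpse2 (14.1 ± 9.54 CPM) followed, and their levels overlapped. No gene reached a correlation of 0.5 with Hcrtr1 over clusters, nor with Mchr1.

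Hcrtr2, which binds both orexins, was borne by 51 glutamatergic and 43 GABAergic clusters. Its level was 40.1, 53.3, 61.7 and 48.3 CPM in glutamatergic neurons and 57.3, 53.3, 55.5 and 56.2 CPM in GABAergic neurons, with overlapping libraries. The highest cluster, Gabra6/Fat2, had 208, 302, 463 and 358 CPM from 20, 35, 31 and 8 nuclei. Gabra6 encodes a GABA-A receptor subunit best known from granule cells of the cerebellum and cochlear nucleus. Col25a1/Nox4 (306 ± 91.6 CPM, with 77.3% of nuclei positive) was within the SD of Gabra6/Fat2, and Slc17a7/Il1rapl2 (235 ± 20.1 CPM, 80.7%) and Hcrtr2/L3mbtl4 (210 ± 28.5 CPM, 75.6%) overlapped each other. The last of these was named in the annotation for Hcrtr2 itself, so its place is no independent finding. Slc17a7/Il1rapl2 was thus among the 5 leading clusters of both Crhr1 and Hcrtr2. Map2k3, a MAP kinase kinase gene, had the pattern over clusters most like Hcrtr2 (r = 0.52, 133 clusters).

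Trhr was borne by 28 glutamatergic and 17 GABAergic clusters. It was highest in cluster 129 (Bnc2/Ebf2), with 27.6, 70.1, 111 and 81.8 CPM and a UMI in 26.9% of nuclei, and in the GABAergic Necab1/Pde1a, with 101, 62.4, 49.3 and 61.5 CPM and 33% of 94 nuclei. Otof/Hpse2 (63.7 ± 13.8 CPM), Rspo2/Ntng1 (62.8 ± 25.2 CPM) and Ccdc172/Ebf2 (54.6 ± 39.2 CPM) followed, all overlapping. The top 5 clusters held 13.4% of neuronal Trhr UMIs in 2.42% of neurons, so most of the transcript lay outside them. Pde1a, a calcium-dependent phosphodiesterase gene (r = 0.52), Lcorl (0.51) and B230209E15Rik (0.51) were most like Trhr over clusters. Cluster 129 was therefore among the leading clusters of both Trhr and Crhr2.

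Mchr1 was borne by 12 clusters, of which 10 were glutamatergic and 1 was GABAergic. Kcnq5/Hs3st4 had 17.4, 8.43, 3.88 and 7.17 CPM from 1 UMI in each library, and Tac1/Tafa2 (8.47 ± 6.22 CPM), Zfp804b/Lncenc1 (6.25 ± 7.52 CPM), Sema3a/Cdh9 (5.77 ± 4.16 CPM) and Zfp804b/Zmat4 (5.45 ± 2.97 CPM) came next. With 3 to 6 UMIs per cluster, the order within this list is not resolved. Over all glutamatergic neurons Mchr1 stood at 1.91 ± 0.826 CPM and over GABAergic neurons at 1.42 ± 0.639 CPM, a difference smaller than the SD.

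**Figure D3:**
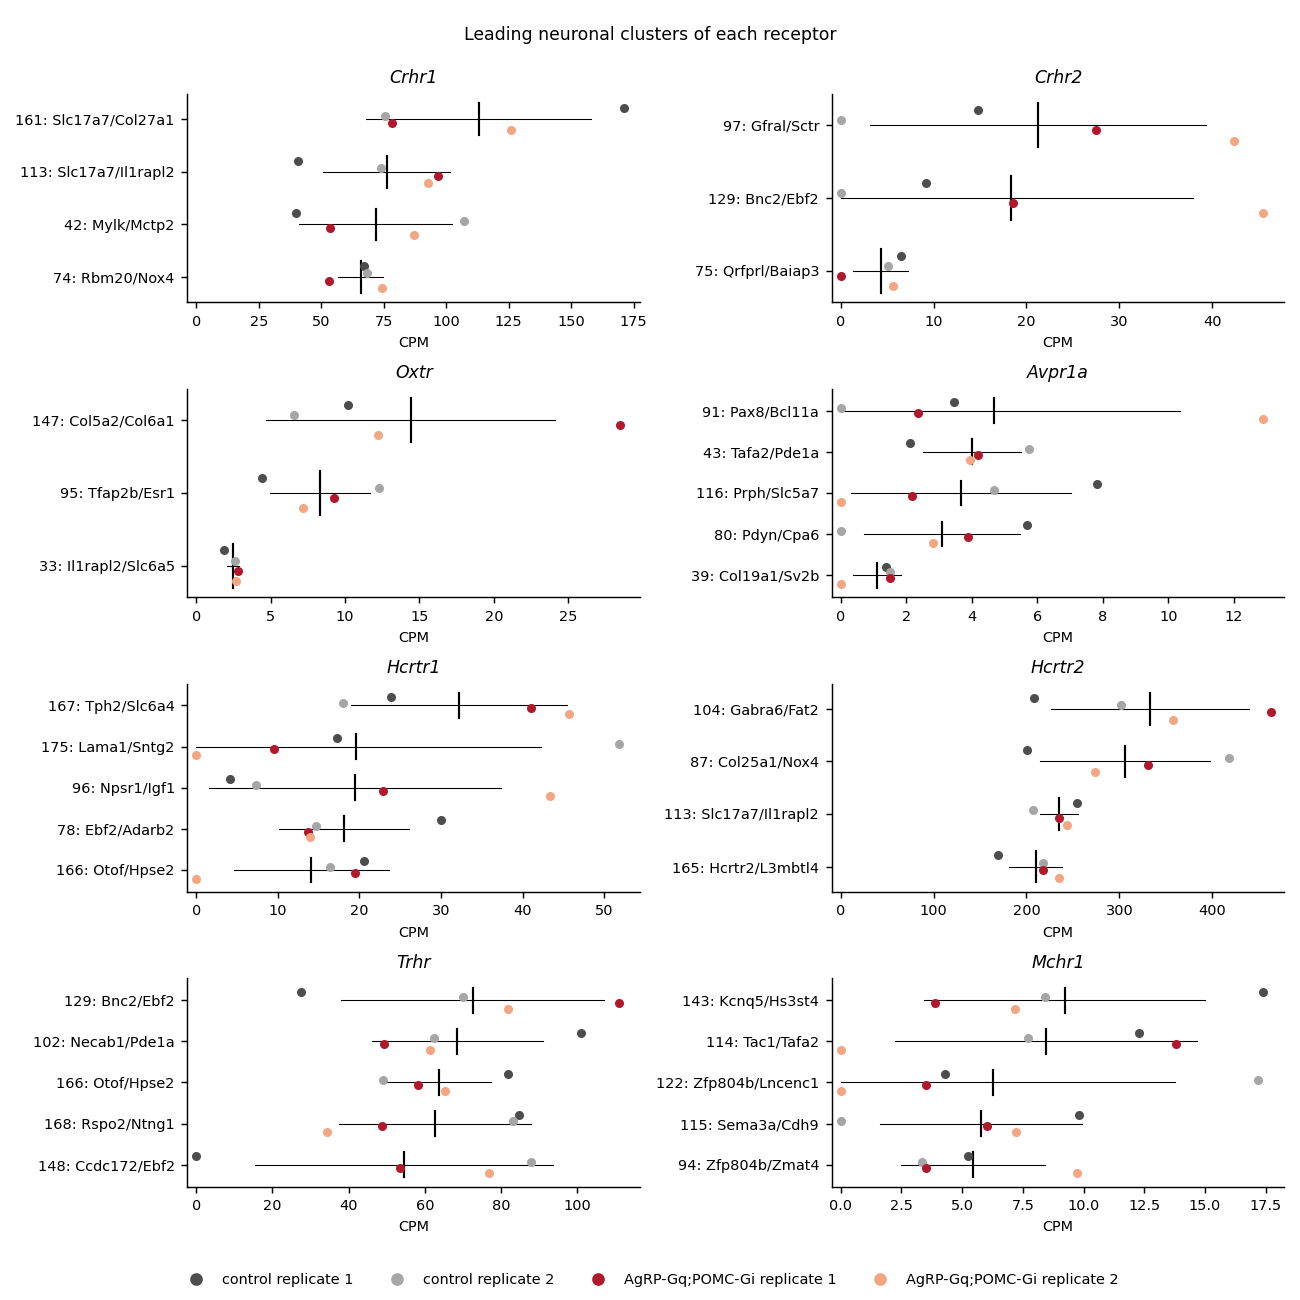
CPM of each receptor in those of its 5 leading neuronal clusters (UMIs in at least 3 libraries) that are reported here, 1 point per library coloured by group, with the mean as a vertical bar and the SD as a horizontal line that is clipped at 0. For Hcrtr2, Slc17a7/Il1rapl2 is tight around 235 CPM, whereas the Crhr2 clusters run from 0 to 45.5 CPM.

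At full depth, most clusters bore several receptors by this rule, and most single neurons showed none or 1. Of the 133 clusters, 10 bore no receptor, 28 bore 1, 41 bore 2, 32 bore 3, 17 bore 4, 3 bore 5 and 2 bore 6. The 2 clusters with 6 were Col19a1/Sv2b and Tafa2/Pde1a, and both bore Crhr1, Avpr1a, Hcrtr1, Hcrtr2, Trhr and Mchr1. In Col19a1/Sv2b, whose nuclei had a median of 17328 UMIs, Hcrtr2 stood at 38.5 ± 11.7 CPM and Crhr1 at 17.9 ± 2.75 CPM. In Tafa2/Pde1a, with a median of 7746 UMIs, the corresponding levels were 47.7 ± 16.3 and 12.8 ± 5.77 CPM. Zfp804b/Npas1, Il1rapl2/Slc6a5 and Prph/Slc5a7 bore 5, and their nuclei had medians of 11121 to 14832.5 UMIs. Larger and deeper clusters can pass the rule more easily, and this part of the count was not tested. Per nucleus, 63.6% of neurons had no UMI of any receptor, 29.1% of 1, 6.68% of 2, 0.606% of 3 and 0.0239% (3 nuclei) of 4.

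Some receptors were also found together in the same nucleus. Crhr1 and Hcrtr2 shared 479 nuclei, or 33.2% of Crhr1-positive neurons, against 21.5% of all neurons with Hcrtr2. For Mchr1-positive neurons the share with Hcrtr2 was 32.8% (63 nuclei), for Hcrtr1 28.6% (106 nuclei) and for Trhr 23.7% (160 nuclei). Other pairs lay on both sides of the share of all neurons. Crhr1 was in 16.7% of Mchr1-positive but 8.65% of Hcrtr1-positive neurons, against 11.5% of all. Trhr was in 9.9% of Mchr1-positive but 5.12% of Crhr1-positive neurons, against 5.38%. Oxtr and Avpr1a, found in only 60 and 57 neurons, shared no nucleus. Deeper nuclei are likelier to show any pair, and this was not corrected, so these shares are given as a description only. Hcrtr2 was borne by 73 of the 86 clusters that bore Crhr1, 35 of the 36 that bore Hcrtr1, 43 of the 50 that bore Trhr and all 12 that bore Mchr1, beside 105 of all 133 clusters. The levels of the receptors over clusters were only weakly related, with r between -0.22 for Crhr1 and Oxtr and 0.27 for Hcrtr2 and Mchr1.

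The clusters that carry well-known hindbrain transcripts, and Tal1/Nell1, differed in receptor content. Gcg/Reln, marked by Gcg, the preproglucagon gene whose products include GLP-1 (87.2 CPM), bore Crhr1 in 8.99% of its 89 nuclei, Hcrtr2 in 21.3% and Trhr in 18%. Gfral/Sctr bore Crhr2 and Hcrtr2 (7.92%), and Trhr had no UMI in its 101 nuclei, where 3 counts would be a share of 2.97% of nuclei with a UMI, a limit on detection and not on expression. Prph/Slc5a7, marked by the cholinergic genes Chat (164 CPM) and Slc5a7 (282 CPM), bore Hcrtr2 in 25.6% of 82 nuclei, Hcrtr1 and Trhr in 6.1% each, Crhr1 in 4.88% and Avpr1a in 3.66%. Gfral/Sctr also held the catecholamine genes Th (42.2 CPM) and Dbh (31 CPM). Casr/Slc6a2 and Ebf2/Th, further clusters with catecholamine genes, held little. Casr/Slc6a2, with Dbh at 88.1 CPM, bore none, and only 3 Hcrtr2 UMIs in 1 library were seen in its 50 nuclei. These nuclei came as 3, 5, 18 and 24 from the libraries. The rule asks for UMIs in at least 3 libraries, so a sparse receptor could be missed there. Ebf2/Th, named for Th and with no Dbh UMI, bore Crhr1 alone, in 3.6% of 139 nuclei. The GABAergic Tal1/Nell1, which is not marked by any of these transcripts, bore Hcrtr2 in 18.6%, Crhr1 in 4.42% and Trhr in 3.54% of 113 nuclei.

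**Figure D4:**
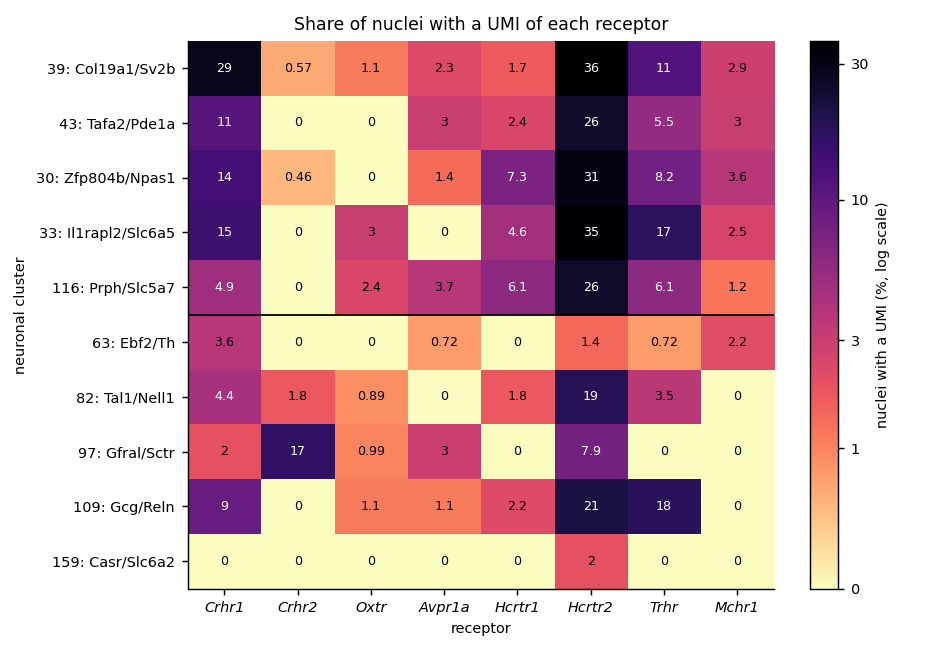
Share of nuclei with a UMI of each receptor, in percent. Clusters that bore 5 or more receptors are above the line, and clusters with known hindbrain transcripts and Tal1/Nell1 are below it. Hcrtr2 is the highest entry in most lines, Crhr2 reaches 16.8% in Gfral/Sctr and Trhr 18% in Gcg/Reln.

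The ligand genes had few transcripts in this tissue, and Crh had the most. Crh had 482 UMIs in neurons and led in the glutamatergic cluster Ano2/Foxp2, at 123, 104, 111 and 106 CPM with 64.6% of 127 nuclei positive, of which 76, 6, 6 and 39 came from the 4 libraries. Slc17a7/Lama1 followed at 64.4 ± 39.4 CPM. The level of Crh within Ano2/Foxp2 was alike in the 4 libraries while the number of its nuclei was not. Trh had 68 UMIs in neurons, of which 42 lay in Tph2/Slc6a4 (143, 0, 51.3 and 45.7 CPM), the leading cluster of Hcrtr1. Hcrt had 135 neuronal UMIs, Ucn2 42, Oxt 32, Pmch 10, Ucn 8, Avp 4 and Ucn3 2. Of the related receptors, Trhr2 had 59, Avpr2 22 and Avpr1b 1. Of the genes for proteins that bind or break down the peptides, Trhde, which encodes the TRH-degrading enzyme, had a UMI in 38.2% of neurons and led in Cpne4/Trhde (976 ± 318 CPM), Lnpep, whose product degrades oxytocin and vasopressin, in 61.3%, and Crhbp, which encodes the CRH-binding protein, in 0.638%.

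The study's main contrast asked how hindbrain nuclei differ after AgRP neurons are activated and POMC neurons inhibited. In all neurons, summed per library, no receptor passed an adjusted p of 0.05 in edgeR's quasi-likelihood test (0 of 8, with 0.00527% of all 18972 genes called), and 1 of 8 had an unadjusted p under 0.05, against 5.66% of all genes. That gene was Crhr2, which had 13, 6, 29 and 38 UMIs, or 0.484, 0.219, 0.815 and 1.08 CPM. The test needed at least 50 UMIs in all neurons, which Crhr2 reached only through the AgRP-Gq;POMC-Gi libraries, where it is high. Neither its unadjusted p nor its direction is therefore read as support. The AgRP-Gq;POMC-Gi libraries were both above the controls, and the log2 difference was 1.48 ± 0.42 (SE, edgeR adjusted p = 0.833). The AgRP-Gq;POMC-Gi libraries held 40 and 37 nuclei of its leading cluster, Gfral/Sctr, against 7 and 17 in the controls, and in bulk sums of neurons more cells of a type and more RNA per cell cannot be told apart. With every cluster given equal weight, the log2 ratio of Crhr2 was 1.58 (0.433 CPM in controls and 1.3 in AgRP-Gq;POMC-Gi mice, 120 clusters). This ratio came from the same few UMIs, with none in 101 of the 133 ranked clusters, and is no further support. The size of the Crhr2 difference in all neurons rested on single control libraries. It was 2.15 on the log2 scale without control replicate 1 and 1.02 without control replicate 2.

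Trhr had 7.89, 7.69, 9.25 and 9.16 CPM in all neurons, and each group had a spread smaller than the gap between the groups. Its log2 difference was 0.30 ± 0.13 (edgeR adjusted p = 0.833). Crhr1 had 16.9, 18.3, 14 and 16.5 CPM, with both AgRP-Gq;POMC-Gi libraries below the controls (log2 difference -0.15 ± 0.11, edgeR adjusted p = 0.842). Hcrtr2 had 46.7, 52, 57.1 and 49.8 CPM, and the groups overlapped (log2 difference 0.18 ± 0.11, edgeR adjusted p = 0.833). The size of the Hcrtr2 difference rested on 1 library of the AgRP-Gq;POMC-Gi group. It was 0.33 when replicate 2 of that group was left out and 0.02 when its replicate 1 was. Libraries of the groups did not overlap for 3 of 8 receptors (Crhr1, Crhr2 and Trhr, 1 lower and 2 higher), beside 37.2% of all genes tested, so this count is near that of all genes. For Oxtr (0.26 ± 0.41), Avpr1a (0.02 ± 0.39), Hcrtr1 (0.03 ± 0.20) and Mchr1 (-0.24 ± 0.28) the log2 difference was smaller than its SE, and the libraries of the groups overlapped. The direction of these 4 receptors turned under at least 1 alternative each.

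**Figure D5:**
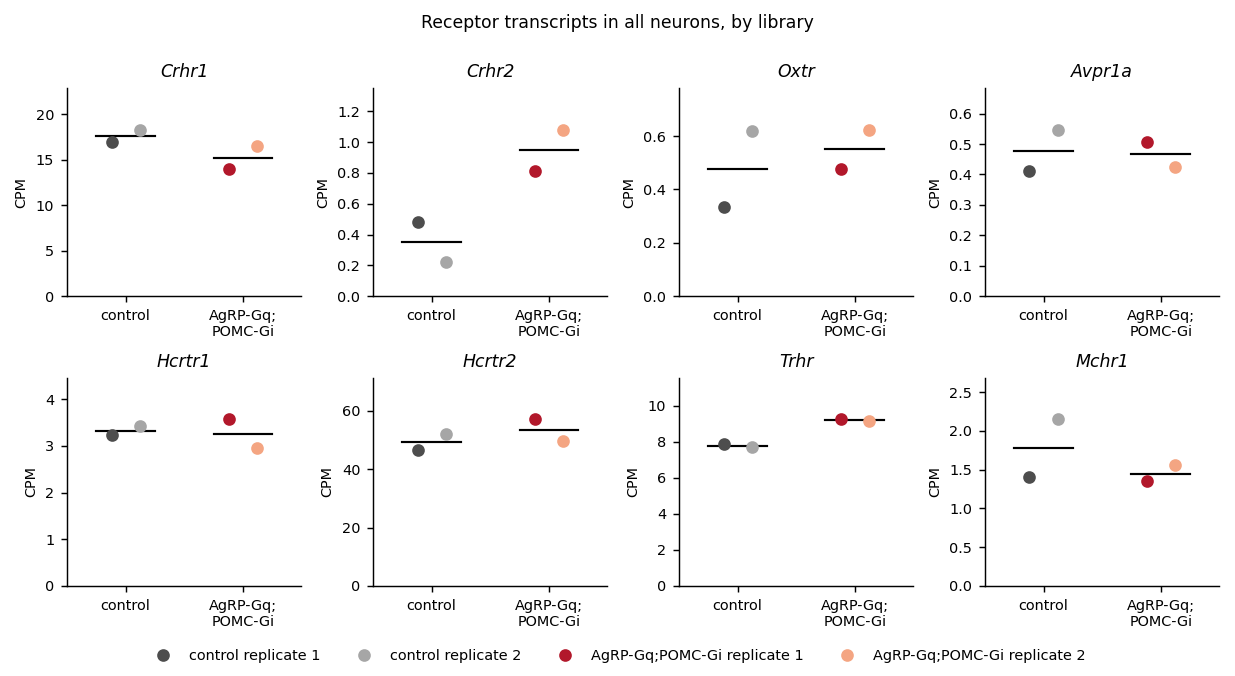
CPM of each receptor in all neurons, 1 point per library, with a line at the mean of the 2 libraries of each group. The groups do not overlap for Crhr1, Crhr2 and Trhr, as for 37.2% of all genes, and no difference passed the test across all genes.

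Within clusters, 118 pairs of receptor and cluster had at least 20 UMIs and could be tested: 69 of Hcrtr2, 27 of Crhr1, 19 of Trhr, 2 of Hcrtr1 and 1 of Crhr2. None passed an adjusted p of 0.05 in edgeR's test (0 of 118, with 0.0158% of 822754 gene and cluster pairs called). An unadjusted p under 0.05 was found for 23 pairs, or 19.5%, against 4.88% of all pairs, to which the same filter applied. Many of these pairs had few UMIs in 1 group and reached the 20 UMIs through the group where they are high, so neither their number nor their direction (19 higher and 4 lower in the AgRP-Gq;POMC-Gi libraries) is read as support. Over all 118 pairs, 65 were higher and 53 lower, with a median log2 difference of 0.11. Of the 23 pairs, 16 were of Hcrtr2, and over its 69 pairs 40 were higher and 29 lower. The pairs share the same 4 libraries and are not independent of each other. The smallest p belonged to Hcrtr2 in Tac1/Tafa2, which had 37, 38.6, 134 and 168 CPM from 6, 5, 29 and 17 UMIs (log2 difference 1.98 ± 0.45, edgeR adjusted p = 0.286). In Ebf2/Ism1, Hcrtr2 had 0, 16, 66.4 and 103 CPM from 0, 2, 7 and 12 UMIs (3.02 ± 0.92, edgeR adjusted p = 0.646). In Bnc2/Ebf3 it had 322, 227, 92.3 and 16.1 CPM from 15, 24, 8 and 1 UMIs (-2.10 ± 0.58, edgeR adjusted p = 0.684). The AgRP-Gq;POMC-Gi libraries thus lay above both controls in Tac1/Tafa2 and Ebf2/Ism1 and below both in Bnc2/Ebf3. Tac1/Tafa2, Ebf2/Ism1 and Bnc2/Ebf3 each reached the 20 UMIs needed only through the libraries where Hcrtr2 is high, so their directions are no support. The difference in Bnc2/Ebf3 was -3.86 without AgRP-Gq;POMC-Gi replicate 1 and -1.47 when replicate 2 of that group was left out.

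Other pairs concerned clusters already described. Trhr in Gcg/Reln had 14.5, 7.93, 29 and 54.6 CPM from 4, 2, 6 and 19 UMIs (log2 difference 2.00 ± 0.64, edgeR adjusted p = 0.843). Crhr2 in Gfral/Sctr had 1, 0, 9 and 12 UMIs (2.72 ± 1.15, edgeR adjusted p = 1), and neither pair passed the correction. Both reached 20 UMIs through the libraries where they are high, with 19 of the 31 Trhr UMIs from AgRP-Gq;POMC-Gi replicate 2, so no direction is read from them. Outside neurons only Hcrtr2 in oligodendrocytes could be tested, at 0.928, 0.67, 1.26 and 1.94 CPM, and it was not called (log2 difference 1.02 ± 0.42, edgeR adjusted p = 0.736, with 0.132% of 71127 gene and type pairs called and 6.42% at an unadjusted p under 0.05, as was the case for Hcrtr2 here).

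Immediate early genes (IEGs), which neurons transcribe within minutes of activation, were compared in the neurons that had a UMI of a receptor. At least 20 such nuclei in every library were found for Crhr1 (314, 372, 372 and 386 nuclei), Hcrtr2 (511, 594, 836 and 752), Trhr (130, 138, 205 and 202), Hcrtr1 (79, 82, 115 and 94) and Mchr1 (37, 54, 46 and 55). Of the 10 IEGs used by the study, 8 could be tested in Crhr1-positive neurons, 10 in Hcrtr2-positive, 6 in Trhr-positive, 4 in Hcrtr1-positive and 3 in Mchr1-positive neurons. None of these 31 tests passed an adjusted p of 0.05 in edgeR (0.00508% of 59056 tests over all genes did), and 1 had an unadjusted p under 0.05, or 3.23% against 5.44%. Fos, the most used of these genes, had 6.06, 4.81, 4.16 and 6.37 CPM in Hcrtr2-positive neurons (log2 difference 0.01 ± 0.28) and 6.09, 5.44, 3.06 and 8.13 CPM in Crhr1-positive neurons (0.02 ± 0.39). Its libraries overlapped between groups in both sets. The single gene was Nr4a1, an orphan nuclear receptor gene, which had 7.35, 9.02, 13 and 16.6 CPM in Trhr-positive neurons (0.93 ± 0.34, edgeR adjusted p = 0.888). Gem, which encodes a small GTP-binding protein, had 4.76, 3.48, 5.23 and 6.7 CPM in Hcrtr2-positive neurons (0.59 ± 0.28, edgeR adjusted p = 0.918). In both cases the AgRP-Gq;POMC-Gi libraries were above the controls, and without control replicate 2 the difference of Gem was 0.38. Also higher without overlap were Gem in Crhr1-positive (0.51), Homer1 in Hcrtr1-positive (0.24) and Btg1 in Hcrtr2-positive neurons (0.11). Lower without overlap were Jun in Trhr-positive (-0.35) and Homer1 in Mchr1-positive neurons (-0.24). The share of all genes without overlap was not measured in these neurons. Nr4a1 differed by 0.10 in Hcrtr2-positive, 0.08 in Crhr1-positive and -0.07 in Hcrtr1-positive neurons.

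Around the receptors, 48 of 56 listed pathway genes had enough counts to be tested in all neurons, and none was called by edgeR. Over all genes 0.00527% were called. An unadjusted p under 0.05 was found for 5 (3 higher and 2 lower), or 10.4%, against 5.66% of all genes. Of 9 ligand genes 3 were tested. Crh had 7.07, 3.24, 1.94 and 3.8 CPM (log2 difference -0.79), Trh had 1.56, 0.146, 0.281 and 0.34 CPM (-1.38), and Hcrt had 0.707, 1.17, 1.29 and 1.08 CPM (0.40). The groups overlapped for all 3, and control replicate 1, with 42 of the 68 Trh UMIs, was the highest library of Crh and Trh. Without control replicate 1 the difference of Crh was -0.13, that of Hcrt was 0.09 and Trh had too few UMIs to be tested. Of the 3 binding or degrading genes, Trhde had 115, 121, 144 and 128 CPM (0.28 ± 0.10, edgeR adjusted p = 0.833), Crhbp had 1.64, 0.875, 0.45 and 0.709 CPM (-1.05 ± 0.40, edgeR adjusted p = 0.833), and Lnpep had a log2 difference of 0.02. The groups of Trhde and of Crhbp did not overlap, as for other genes of these lists and for 37.2% of all genes tested. Without AgRP-Gq;POMC-Gi replicate 1 the difference of Trhde was 0.13, and without control replicate 1 that of Crhbp was -0.54. The 41 transduction genes (such as G protein subunits, phospholipases, adenylyl cyclases, IP3 receptors, kinases, arrestins, RGS proteins and TRPC channels) were divided into 19 with a positive and 22 with a negative log2 difference, with a median of -0.01 against 0 over all genes. Those with an unadjusted p under 0.05 were Plcb2 (-0.90), Trpc5 (0.22) and Plcb1 (0.21), each with an edgeR adjusted p of 0.833.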

How the data were processed

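The deposited matrices hold raw UMI counts per gene and barcode, which the authors made with Cell Ranger 7.0.0 on GRCm38 from 10x 3′ libraries of DRAQ5-sorted nuclei. The authors' annotation (Seurat 4.3.0) gave each nucleus its cell type, cluster, total counts and mitochondrial percent, after a filter of at least 800 UMIs, 500 genes and at most 10% mitochondrial counts, and doublet detection at an assumed rate of 0.02. No further filter on nuclei and no doublet caller was applied here. The deposited joined matrix was not used. Values of 3 clusters are not reported here, and the counts over clusters include them.

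The 8 receptors, gene lists and tests were chosen with earlier results of these data known. Named were all 8 receptors. For each, the 5 neuronal clusters of highest mean CPM were named, given at least 20 nuclei and UMIs in at least 3 libraries. Clusters with known hindbrain transcripts, cluster Tal1/Nell1 and the pairs of smallest p were named as well. Trhr in Gcg/Reln, Crhr2 in Gfral/Sctr, Gem and Fos were named after their values were seen. CPM is the UMIs of a gene scaled to 1000000 UMIs of the nuclei summed, per library, and SDs are over 4 libraries. Levels across clusters were not tested. Groups (n = 2 libraries each) were compared on counts summed per library with edgeR 4.0.16 (R 4.3.3; quasi-likelihood, TMM, Benjamini-Hochberg over all genes or all gene and cluster pairs), for genes with at least 50 UMIs in all neurons or in a cell type, and with at least 20 UMIs in the 120 clusters that every library filled with 5 or more nuclei. The steps were tested on simulated data. DESeq2 1.42.0, no TMM, other filters, left-out libraries and a replicate block were the alternatives. Gene positions are those of GENCODE vM21.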

Additional observations from a re-analysis of the deposited data

How the results depend on the processing

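Replicate numbers were shared between groups, but same-numbered libraries did not deviate together (r = 0.06 over 18972 genes). With the replicate number as a block, 0 receptors were called in all neurons, 0 receptor and cluster pairs, 0 IEG tests and 0 pathway genes, as without it, while the calls over all genes went from 1 to 81 in all neurons and from 130 to 457 over clusters. DESeq2 called 12 genes in all neurons and 12 pairs over clusters, none of them a receptor. Leaving out 1 library gave 0 to 1 called receptor in all neurons, 0 to 1 receptor and cluster pair, 0 to 1 IEG test and 0 to 7 pathway genes. The 1 receptor was Hcrtr2 without AgRP-Gq;POMC-Gi replicate 2, where 2332 of all genes were called, and the 7 genes in the same setting included Trhde (log2 0.41, adjusted p = 0.0019 by edgeR) and Crh (-1.29, 0.0467). The 1 pair was Hcrtr2 in cluster 68 and the 1 IEG 1700016P03Rik in Hcrtr2-positive neurons (edgeR adjusted p = 0.0137 and 0.021), both without AgRP-Gq;POMC-Gi replicate 1. Each left-out fit assumes that the lone library varies like the others, and the cause of these changes was not tested. Directions turned without control replicate 1 for Oxtr (-0.11), Hcrtr1 (-0.01) and Lnpep (-0.01), without control replicate 2 for Mchr1 (0.10), without AgRP-Gq;POMC-Gi replicate 1 for Hcrtr1 (-0.17), and without TMM for Avpr1a (-0.04), Hcrtr1 (-0.03) and Lnpep (-0.04). Over the left-out libraries, Hcrtr1 ran from -0.17 to 0.21 and Mchr1 from -0.50 to 0.10. Without TMM the median over all genes moved by -0.06.

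Counts of bearing clusters depended on depth: thinning to 2000 UMIs left 62 for Hcrtr2, 30 for Crhr1, 17 for Trhr, 1 for Hcrtr1 and 0 for Crhr2, Oxtr, Avpr1a and Mchr1. All non-neuronal nuclei as background, choroid plexus included, left 2 for Crhr2. Leaving out 1 library, with UMIs then asked of all 3 that remain, gave 79 to 91 clusters for Hcrtr2, 60 to 66 for Crhr1, 30 to 36 for Trhr, 17 to 21 for Hcrtr1, 4 to 9 for Mchr1, 3 for Oxtr, 1 to 3 for Avpr1a and 0 to 2 for Crhr2. The leading cluster moved to rank 2 after thinning for Crhr2, Avpr1a, Hcrtr2 and Trhr, and by mean log1p value per nucleus to rank 2 for Crhr2, Avpr1a and Mchr1 and rank 4 for Hcrtr2. With a library left out, the rank ran from 1 to 2 for Hcrtr2, 1 to 3 for Mchr1 and 1 to 4 for Trhr and Avpr1a, and was 1 in each case for Crhr2, Oxtr and Hcrtr1. Among cell types, fibroblasts went to rank 2 for Avpr1a by log1p, neurons to rank 2 for Hcrtr1 after thinning to 800 UMIs, and Ms4a4b immune nuclei to rank 5 for Mchr1. With a library left out, these ran from 1 to 2 for Avpr1a and from 1 to 8 for Mchr1, and the other receptors kept their first cell type. Hcrtr2 in oligodendrocytes had too few UMIs to be tested with a library left out.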
